A study of Mus musculus with 6 samples.

Results

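Natural killer (NK) cells are innate lymphocytes that kill transformed or infected cells without prior sensitisation, and they decide by adding up signals from activating and inhibitory surface receptors. The genes described here are 10 that encode such receptors and the proteins that carry their signals. They are Ncr1, Klrb1c, Klrk1, Klrd1, Klrc1, Klre1, Cd244a, Il2rb, Tyrobp and Hcst, chosen by name as known NK cell genes, and they are 10 of the 55487 genes in the count table. The activating receptors mostly rely on adaptor proteins in the membrane to recruit kinases, and inhibitory receptors carry motifs that recruit phosphatases. None of the 10 is expressed by NK cells alone. CD8+ T cells can carry NKG2D and CD94, other T cells carry Il2rb, and macrophages, monocytes and neutrophils carry Tyrobp.

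RNA was sequenced from 6 whole subcutaneous tumors of CT26.WT, a single colon carcinoma line of BALB/c origin that grows in mice with a full immune system. The genotype was given as WT, and the mice were male BALB/c, 4 weeks old when purchased. IFN-γ (100 ng/ml, 100 µL) was given into the tail vein every 48 h for the 3 tumors of the IFN-γ group, and PBS for the 3 control tumors. The comparison asks what repeated IFN-γ did to the tumors' expression. In each library 15759300 to 17559680 reads were counted on genes, so a count of 0 allows up to 0.171 to 0.190 CPM of the library total, a limit of 3 counts that covers counting error only. Levels are given as CPM, read counts scaled to the library size with TMM factors. Each p-value sets a difference between the groups against the spread between these tumors. Of 9 markers of colon epithelium, Cdx2 was at 0 in all 6 tumors, Cdx1, Krt19, Epcam and Vil1 were too low to be tested, and Krt20 averaged 162 ± 11.7 CPM (SD, n = 3) in the control tumors and 168 ± 89.3 CPM (SD, n = 3) in the IFN-γ tumors.

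IFN-γ tumor 3 stood apart from the other tumors of its group. Over all genes, edgeR's quasi-likelihood test, adjusted by Benjamini-Hochberg and read at 0.05, called 12 genes higher and 5 lower with IFN-γ. It called 381 higher and 112 lower when that tumor was left out, while leaving out any other tumor gave 4 to 7 higher. Per its legend, the study's own RNA-seq comparison used fewer IFN-γ tumors than the count table holds, and for its upregulated genes also fewer control tumors. The legend does not name them. Results are therefore given with and without IFN-γ tumor 3. That tumor was singled out from these same data, so calls and p-values without it are description and not a comparison fixed beforehand. It was also lowest for 7 of the 10 genes, so leaving it out raises their fold changes by construction.

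In GENCODE M21 (GRCm38, the mm10 build), 5 of the genes lie within 900489 bases of chromosome 6, in the NK gene complex. Klrb1c occupies chr6:128778485-128789215 on the minus strand, Klre1 chr6:129577905-129585827 and Klrd1 chr6:129591782-129598775 on the plus strand, and Klrk1 chr6:129610323-129623864 and Klrc1 chr6:129666015-129678973 on the minus strand. Chromosome 7 holds Ncr1 at chr7:4337724-4345164 on the plus strand and both adaptors. Tyrobp, at chr7:30413760-30417585 on the plus strand, and Hcst, at chr7:30417712-30419854 on the minus strand, face each other tail to tail with 126 bases between them. Cd244a occupies chr1:171559193-171609746 on the plus strand and Il2rb chr15:78479256-78495271 on the minus strand. All 10 are protein coding.

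RefSeq promoter sequences (GRCm38.p6) were matched for 7 of the 10 genes by symbol, as 9 start sites. Klrd1, Il2rb and Tyrobp were not matched. The 250 bases before each start were searched on both strands for 5 short motifs. The interferon-γ activated site was searched as TTCNNNGAA, and a repeat read by interferon regulatory factors as GAAANNGAA. The core read by RUNX factors was TGTGGT, that of the T-box family was TCACACC, and that of the ETS family was GAGGAAG. None of the 5 motifs is a part of another, and matches to them may still lie over each other. Promoters are shown for Ncr1, Klrk1 and Klrc1, which are among the genes whose ratios are compared within each tumor. Ratios of Hcst are compared too, but its promoter is not printed. The promoters of Hcst and Cd244a held no match to any of the 5 motifs. Capitals mark TGTGGT or its reverse complement ACCACA, and in Klrk1 also the one match to GAAANNGAA among the 9 sites. Positions count back from the start site, the last base printed being -1.
Ncr1, chr7:4337465-4337714, plus strand: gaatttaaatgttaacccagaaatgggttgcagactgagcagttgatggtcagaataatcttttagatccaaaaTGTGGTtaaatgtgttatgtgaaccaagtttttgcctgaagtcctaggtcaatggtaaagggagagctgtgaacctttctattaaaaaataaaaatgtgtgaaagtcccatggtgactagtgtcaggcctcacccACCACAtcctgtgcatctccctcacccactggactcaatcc
Klrk1, chr6:129623865-129624114, minus strand: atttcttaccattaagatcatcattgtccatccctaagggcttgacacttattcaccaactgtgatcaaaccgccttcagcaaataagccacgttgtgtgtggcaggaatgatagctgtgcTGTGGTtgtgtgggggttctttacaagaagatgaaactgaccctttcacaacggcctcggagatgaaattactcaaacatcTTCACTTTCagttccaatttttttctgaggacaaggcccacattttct
Klrc1, chr6:129678974-129679223, minus strand: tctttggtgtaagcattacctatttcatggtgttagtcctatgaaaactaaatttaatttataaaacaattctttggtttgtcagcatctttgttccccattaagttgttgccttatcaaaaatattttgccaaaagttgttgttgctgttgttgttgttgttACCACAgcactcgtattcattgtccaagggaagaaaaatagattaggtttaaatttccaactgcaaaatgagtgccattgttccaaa
TGTGGT began at -176 in Ncr1, with a second match on the other strand at -41, at -129 in Klrk1 and, on the other strand, at -87 in Klrc1. Klrb1c and Klre1 held it too, so it was present before 6 of the 9 starts and in 5 of the 7 genes, against 14.0% of 32851 promoters of the same length. The 2 Ncr1 starts lie 9 bases apart and hold the same matches, so that stretch counts as 2 of the 6. GAAANNGAA was found in Klrk1 at -48 and in 7.1% of all promoters, and GAGGAAG in Klrb1c and Klre1 and in 10.6% of all. The letters GAAANNGAA were set after a form longer by 1 base had found no match among the 9. The match in Klrk1 is therefore not from a search fixed beforehand. TTCNNNGAA and TCACACC were in none of the 9, against 7.0% and 3.3% of all promoters. These are matches of letters only, in the genome of a C57BL/6J mouse, whereas the tumors were BALB/c.

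Levels were compared between genes as RPKM, which divides CPM by exon length in kilobases. The length was that of all annotated exons of a gene merged, 7183 bases for Klrk1 and 1281 for Klrd1. The order depends on this length. In CPM, Klrk1 averaged 20.2 in the control tumors, above Ncr1 at 9.44 and Klrd1 at 9.15. Tyrobp was by far the most abundant of the 10, with 147 ± 14.1 RPKM (SD, n = 3) in the control tumors, and its lowest tumor, at 137 RPKM, lay above the highest tumor of every other gene. Il2rb followed at 12.9 ± 2.66 RPKM (SD, n = 3), then Klrd1 at 7.14 and Ncr1 at 6.13 RPKM. Hcst, Klrk1 and Klrc1 averaged 2.94, 2.82 and 2.74 RPKM in the control tumors, and Klre1, Klrb1c and Cd244a 1.22, 0.526 and 0.447 RPKM. Apart from Tyrobp and Il2rb, the ranges over the 6 tumors of all neighbours in this order overlapped. Tyrobp's adaptor partner Hcst was present at a small part of its level per length, in every tumor.

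**Figure D1:**
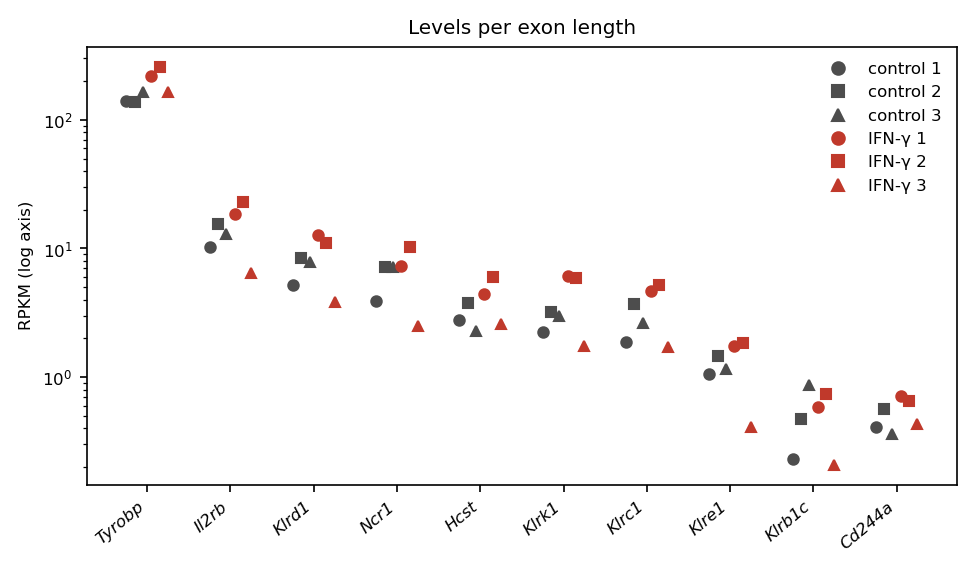
RPKM (log axis) of the 10 genes in each of the 6 tumors, ordered by the control mean; gray symbols are control tumors, red symbols IFN-γ tumors. Tyrobp lies above every other gene in all 6 tumors, and IFN-γ tumor 3 is the lowest tumor for 7 of the 10 genes.

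Across all 6 tumors, none of the 10 genes passed the test in either direction, while 0.0794% of the 15114 genes tested were called higher. DESeq2 and limma-voom called none of the 10 either. All 10 genes passed the filter on low counts. Of them 9 had a fold change above 0, with a median log2 fold change of 0.39 and a range from -0.04 to 0.71, beside a median of 0.0015 and 50.4% above 0 over all genes tested. An unadjusted p under 0.05 was seen for 1 of the 10, Tyrobp, against 5.74% of all genes in that direction. With IFN-γ tumor 3 left out, Klrk1 and Tyrobp passed the test, 2 of 10, where 2.46% of 15487 genes were called higher. All 10 fold changes were then above 0, with a median of 0.67 on the log2 scale beside -0.02 over all genes, and 7 of 10 had an unadjusted p under 0.05 against 9.6% of all genes in that direction. These are RNA levels in whole tumors, in which fewer cells of a type and less RNA per cell cannot be told apart.

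The tumors ranked in much the same way for most of the receptors. IFN-γ tumor 3 had the lowest CPM for 7 of the 10 genes, all but Cd244a, Tyrobp and Hcst, and it was the lowest tumor for 21.3% of all genes tested. Control tumor 1 was second lowest for 9 of the 10. With 6 tumors the groups overlapped for all 10 genes, whereas 7.62% of all genes were higher in the IFN-γ group with no overlap. Without IFN-γ tumor 3 the groups did not overlap for 9 of 10, all but Klrb1c, against 18.1% of all genes. For Ncr1 the gap was narrow, with 11.3 CPM in IFN-γ tumor 1 and 11.1 CPM in control tumor 3, both from 195 counts.

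**Figure D2:**
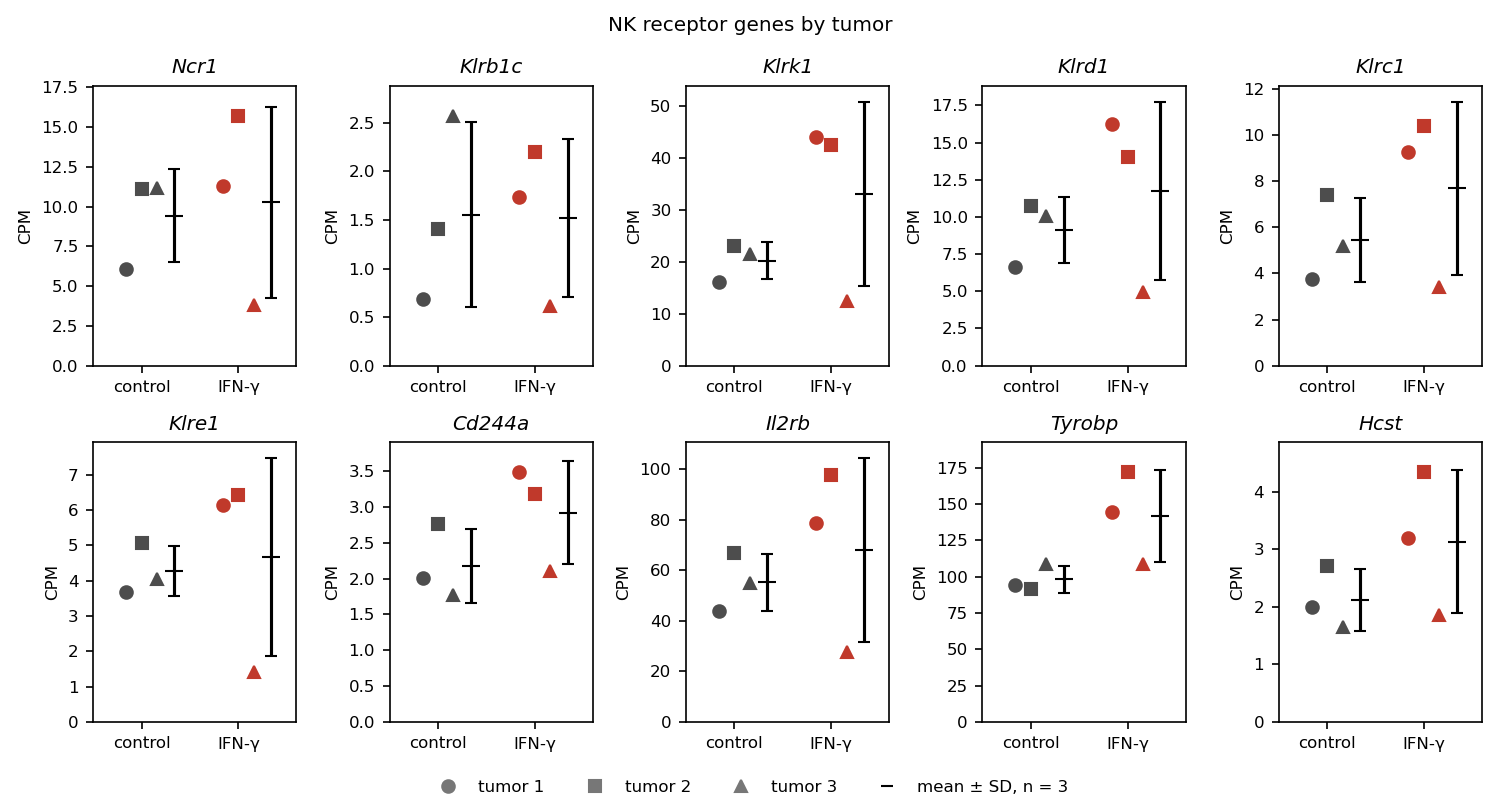
CPM of each of the 10 genes by tumor, with the mean ± SD of each group (n = 3) to the right of its points; every vertical axis starts at 0 and has its own scale. IFN-γ tumors 1 and 2 lie above every control tumor for all genes but Klrb1c, though IFN-γ tumor 1 only narrowly for Ncr1. IFN-γ tumor 3 lies within or below the control tumors.

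Among the activating receptors, Klrk1 encodes NKG2D, which binds stress-induced ligands on tumor cells and in the mouse signals through both Hcst and Tyrobp. It measured 16.2, 23.1 and 21.5 CPM in control tumors 1, 2 and 3, and 44.1, 42.6 and 12.6 CPM in IFN-γ tumors 1, 2 and 3. IFN-γ tumors 1 and 2 were far above every control tumor, and IFN-γ tumor 3 was below them all. The group means were 20.2 ± 3.60 CPM (SD, n = 3) and 33.1 ± 17.8 CPM (SD, n = 3), and the log2 fold change was 0.71 (SE 0.40, adjusted p = 0.6) with 6 tumors and 1.09 (SE 0.14, adjusted p = 0.012) without IFN-γ tumor 3. That was the largest fold change among the 10 genes in both fits.

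Ncr1 encodes NKp46, a receptor that marks NK cells and related innate lymphoid cells and signals through the adaptors Fcer1g and Cd247. It measured 6.06, 11.1 and 11.1 CPM in control tumors 1, 2 and 3, and 11.3, 15.7 and 3.83 CPM in IFN-γ tumors 1, 2 and 3. Only IFN-γ tumor 2 stood clear of the controls, since IFN-γ tumor 1 was level with control tumors 2 and 3. Its log2 fold change was 0.12 (SE 0.45, adjusted p = 0.96) with 6 tumors and 0.50 (SE 0.27, adjusted p = 0.41) without IFN-γ tumor 3, and leaving out control tumor 1 or IFN-γ tumor 2 turned it to -0.11 and -0.32.

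Klrb1c encodes NKR-P1C, an activating receptor best known as an NK cell marker of C57BL/6 mice. It measured 0.688, 1.41 and 2.57 CPM in control tumors 1, 2 and 3, and 1.74, 2.20 and 0.618 CPM in IFN-γ tumors 1, 2 and 3, from 10 to 45 counts. The highest tumor was a control and the groups overlapped in full, at a log2 fold change of -0.04 (SE 0.56, adjusted p = 0.99). Without IFN-γ tumor 3 it was 0.32 (SE 0.49, adjusted p = 0.82), and without control tumor 3 it was 0.52. Its counts are uncertain, because 17.0% of its 50-base stretches also occur in other genes, mainly Gm44511, which shares 413 of its exon bases on the same strand, and Klrb1a and Klrb1b.

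Cd244a encodes 2B4, a SLAM family receptor for CD48 on other leukocytes. It measured 2.0, 2.76 and 1.77 CPM in control tumors 1, 2 and 3, and 3.48, 3.18 and 2.10 CPM in IFN-γ tumors 1, 2 and 3. IFN-γ tumors 1 and 2 exceeded the controls and IFN-γ tumor 3 lay among them, and the log2 fold change of 0.42 (SE 0.29, adjusted p = 0.69) became 0.60 (SE 0.29, adjusted p = 0.37) without that tumor.

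The CD94 family forms receptors of paired chains. Klrd1 encodes CD94, the shared chain of receptors for the non-classical class I molecule Qa-1, and Klrc1 encodes NKG2A, its inhibitory partner. Klrd1 measured 6.63, 10.8 and 10.1 CPM in control tumors 1, 2 and 3, and 16.3, 14.0 and 4.95 CPM in IFN-γ tumors 1, 2 and 3. Klrc1 measured 3.75, 7.39 and 5.20 CPM in control tumors 1, 2 and 3, and 9.29, 10.4 and 3.40 CPM in IFN-γ tumors 1, 2 and 3. Both were higher in IFN-γ tumors 1 and 2 than in any control and lowest in IFN-γ tumor 3. Klrd1 had a log2 fold change of 0.36 (SE 0.39, adjusted p = 0.82) with 6 tumors and 0.72 (SE 0.21, adjusted p = 0.12) without IFN-γ tumor 3. For Klrc1 the values were 0.50 (SE 0.41, adjusted p = 0.75) and 0.84 (SE 0.26, adjusted p = 0.15). Klrc1 shares 38.6% of its 50-base stretches with Klrc2 and Klrc3, so its counts may be split between these genes.

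Klre1 encodes NKG2I, a lectin-like receptor that pairs with Klri1 or Klri2. It measured 3.69, 5.07 and 4.06 CPM in control tumors 1, 2 and 3, and 6.15, 6.41 and 1.42 CPM in IFN-γ tumors 1, 2 and 3. Relative to the control mean, its level in IFN-γ tumor 3 was the lowest of the 10 genes, with 23 counts against 59 to 90 in the controls. Its log2 fold change was 0.13 (SE 0.47, adjusted p = 0.96) with 6 tumors and 0.54 (SE 0.22, adjusted p = 0.26) once IFN-γ tumor 3 was left out, and it became -0.12 and -0.17 when tumor 1 or 2 of the group was left out instead.

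Il2rb encodes the chain shared by the receptors for IL-2 and IL-15, cytokines on which NK cells depend for survival. It measured 43.9, 66.7 and 55.1 CPM in control tumors 1, 2 and 3, and 78.8, 97.9 and 27.5 CPM in IFN-γ tumors 1, 2 and 3. Here too IFN-γ tumors 1 and 2 were above and IFN-γ tumor 3 below all controls. The log2 fold change was 0.30 (SE 0.39, adjusted p = 0.85) with 6 tumors and 0.67 (SE 0.16, adjusted p = 0.071) without IFN-γ tumor 3, and it turned to -0.057 when tumor 2 was left out.

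The adaptors link several of these receptors to kinases. Tyrobp encodes DAP12, an adaptor with an activation motif that recruits Syk and Zap70 and that myeloid cells express strongly. It measured 94.1, 91.6 and 109 CPM in control tumors 1, 2 and 3, and 145, 172 and 109 CPM in IFN-γ tumors 1, 2 and 3. IFN-γ tumors 1 and 2 lay above all controls, and IFN-γ tumor 3 was level with the highest of them. The log2 fold change was 0.53 (SE 0.16, adjusted p = 0.33) with 6 tumors, at an unadjusted p of 0.0089 in edgeR, and 0.68 (SE 0.10, adjusted p = 0.017) without IFN-γ tumor 3. With no filter on low counts it passed the test with 6 tumors (adjusted p = 0.041 in edgeR), where 0.558% of 26868 genes were called higher. Hcst encodes DAP10, which links NKG2D to phosphoinositide 3-kinase. It measured 2.0, 2.71 and 1.66 CPM in control tumors 1, 2 and 3, and 3.19, 4.34 and 1.86 CPM in IFN-γ tumors 1, 2 and 3, or 29 to 71 counts. IFN-γ tumor 3 lay between control tumors 1 and 3, and the log2 fold change was 0.56 (SE 0.35, adjusted p = 0.65) with 6 tumors and 0.81 (SE 0.31, adjusted p = 0.23) without it.

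**Figure D3:**
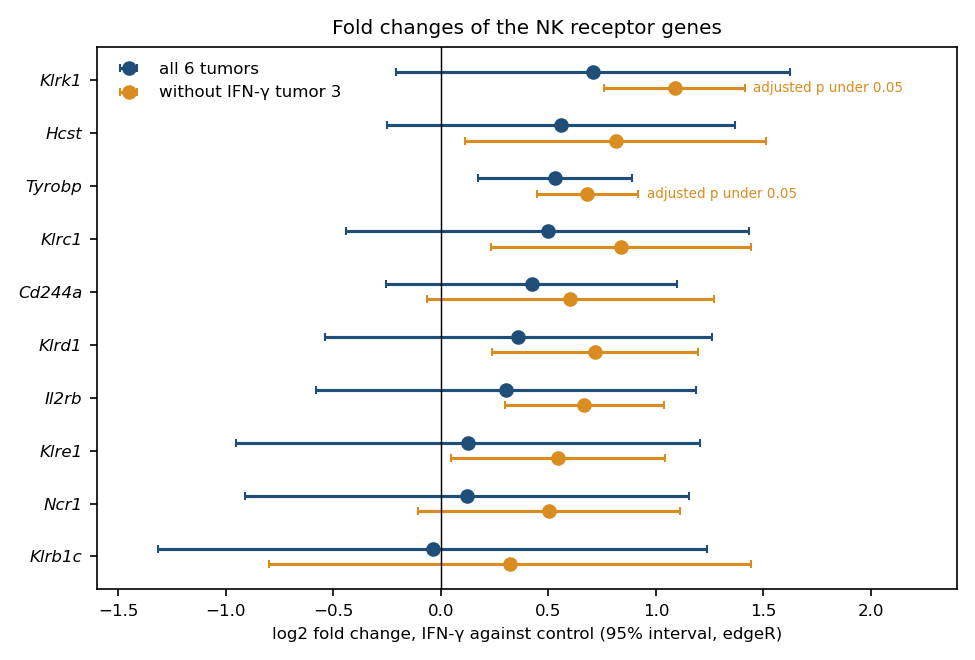
Log2 fold change (IFN-γ against control) of the 10 genes with its 95% interval from edgeR, with all 6 tumors in blue and without IFN-γ tumor 3 in orange. With 6 tumors only the interval of Tyrobp lies above 0, and without IFN-γ tumor 3 the values of Klrk1 and Tyrobp carry an adjusted p under 0.05.

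Ratios within a tumor set one gene against another in the same library. For 7 ratios, log2 of the ratio of CPM plus 0.5 was tested by an exact two-sided permutation test, whose smallest possible p with 3 tumors against 3 is 0.1. The ratio of Ncr1 to Klrk1 was -1.35, -1.02 and -0.92 in the control tumors and -1.91, -1.41 and -1.59 in the IFN-γ tumors. It was lower in every IFN-γ tumor than in any control, tumor 3 included, by a mean difference of -0.54 (exact p = 0.1, adjusted p over the 7 ratios 0.233, exact permutation test), and 1.57% of the other genes tested had a ratio to Klrk1 that was lower with no overlap. The ratio of Klrk1 to Cd3e, a chain of the T cell receptor complex, was 1.72, 1.63 and 1.54 in the control tumors and 2.10, 2.04 and 1.79 in the IFN-γ tumors. It was higher in all 3 IFN-γ tumors by a mean of 0.35 (exact p = 0.1, adjusted 0.233, permutation test), and 0.82% of other genes had a ratio to Cd3e that was higher with no overlap. Klrk1 and Cd3e were themselves lowest in IFN-γ tumor 3 and highest in IFN-γ tumors 1 and 2. A gene with the same CPM in all tumors therefore cannot have such a ratio to either. Both shares are low by construction and do not measure how unusual these ratios are. The separation of Klrk1 to Cd3e depended on the value added to CPM. With 2 in place of 0.5 the mean difference was 0.34 and the groups overlapped (exact p = 0.2, permutation test).

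The ratio of Tyrobp to Csf1r, the receptor for the macrophage growth factor, was -1.38, -1.67 and -1.35 in the control tumors and -1.27, -1.16 and -1.25 in the IFN-γ tumors. It was higher in all 3 IFN-γ tumors by 0.24 (exact p = 0.1, adjusted 0.233, permutation test), and 1.17% of other genes had such a ratio to Csf1r. The other ratios overlapped between the groups. Klrd1 to Cd3e differed by 0.05 (exact p = 0.7, permutation test), Klrc1 to Klrk1 by -0.14 (exact p = 0.4, permutation test), Hcst to Ptprc, a gene of all leukocytes, by 0.23 (exact p = 0.5, permutation test) and Tyrobp to Hcst by 0.08 (exact p = 0.9, permutation test). No ratio could pass 0.05 in this design.

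**Figure D4:**
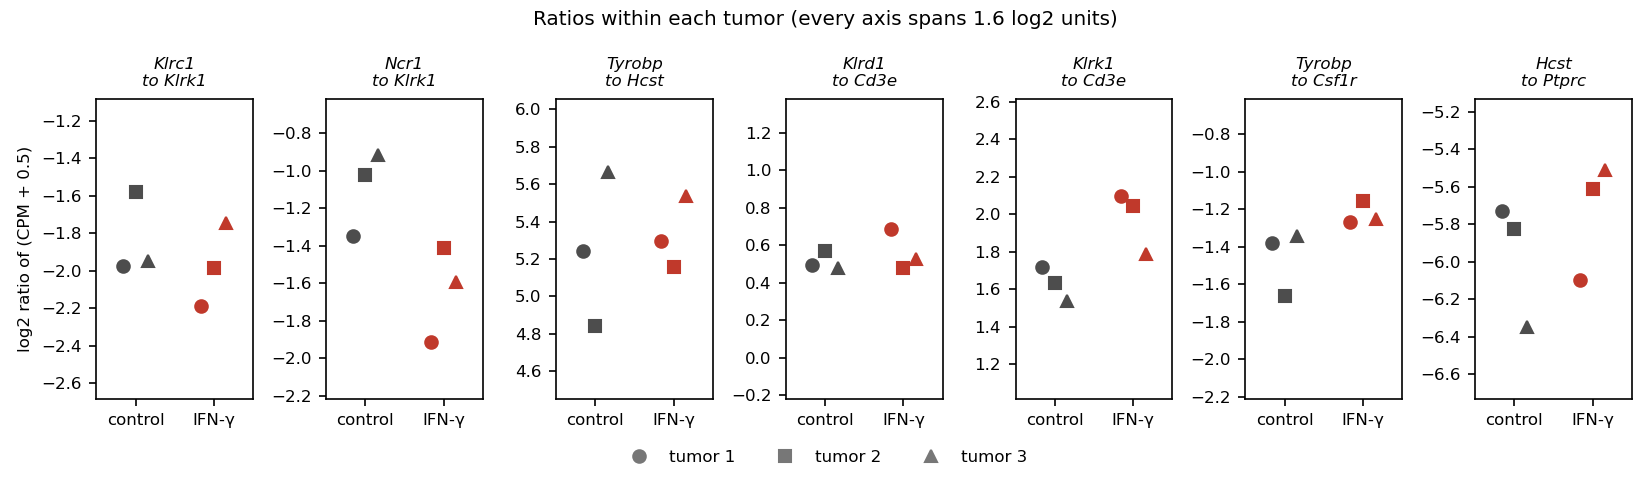
Log2 ratio of CPM plus 0.5 for 7 pairs of genes in each tumor, with control tumors in gray and IFN-γ tumors in red; each vertical axis spans 1.6 log2 units. The groups are apart for Ncr1 to Klrk1, Klrk1 to Cd3e and Tyrobp to Csf1r, and they overlap for the other 4 pairs.

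The genes whose pattern over tumors was most like that of the receptors included a T cell gene, Cd3e. The mean of the centred log2 CPM of the 8 receptors, without the adaptors, was -0.46, 0.16 and 0.03 in control tumors 1, 2 and 3 and 0.52, 0.62 and -0.87 in IFN-γ tumors 1, 2 and 3. Of the genes outside the 10, those with the highest Pearson correlation to this mean over the 6 tumors were Lcp2 (0.998), an adaptor of receptor signalling, Gimap6 (0.998), a lymphocyte GTPase, Ddx58 (0.997), a sensor of viral RNA, Cd3e (0.996) and Tmc8 (0.995). In all, 187 of 15114 genes had a correlation over 0.95, and all of them share these 6 libraries. Among the 10 genes themselves, the correlation ran from 0.74 for Cd244a to 0.99 for Il2rb within the 8 receptors, each of which is part of the mean, and was 0.66 for Tyrobp and 0.79 for Hcst.

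Markers of some other cells, but not of all, ran in parallel with the receptors over the tumors. The summed level of the 8 receptors was 82.9 to 128 CPM in the control tumors and 171, 192 and 56.4 CPM in IFN-γ tumors 1, 2 and 3. The 12 T cell markers summed to 66.8 to 104 CPM in the controls and 136, 161 and 52.0 CPM in the IFN-γ tumors, again above the controls in tumors 1 and 2 and below them in tumor 3. None of the 12 passed the test with 6 tumors, all 12 had a fold change above 0 (median 0.48), and Cd6 alone passed without IFN-γ tumor 3. The 12 markers of macrophages and monocytes summed to 3841 to 4550 CPM in the controls and 5785, 6963 and 4249 CPM in the IFN-γ tumors, and tumor 3 stayed within the control range. With 6 tumors edgeR called none of them, and DESeq2 and edgeR with no filter on low counts each called 3 higher. Without IFN-γ tumor 3, edgeR called 8 of 12 higher, among them C1qb and Aif1. In either fit 10 of the 12 had a fold change above 0. Across 6 tumors, 3 of the 12 were higher in the IFN-γ group with no overlap, and 1 was lower. Of all genes, 7.62% were higher in that way. For the 6 genes of all leukocytes, edgeR's counts of calls were 0 and 5, and 1 with 6 tumors and no filter. The 6 innate lymphoid genes gave 0 and 1, Cxcr6, and the tested genes of neutrophils 0 of 5 and, without IFN-γ tumor 3, Csf3r alone. B cell, dendritic cell and fibroblast markers gave no call in either fit. The 4 tested B cell markers had a median log2 fold change of -1.35 with 1 of 4 above 0, the reverse of the receptors' direction. Colon epithelium markers likewise had a median of -0.39 with 1 of 4 above 0. All 9 summed to 188, 166 and 182 CPM in the control tumors. In IFN-γ tumors 1, 2 and 3 they summed to 129, 123 and 283 CPM, so tumor 3 was above the controls and the others below. Of the colon epithelium markers only Krt20 was called, as lower (-0.49, adjusted p = 0.025, edgeR) without IFN-γ tumor 3. No defining marker of T cells or macrophages was at 0 in any tumor, and the part of these cells in the receptor results was not tested.

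**Figure D5:**
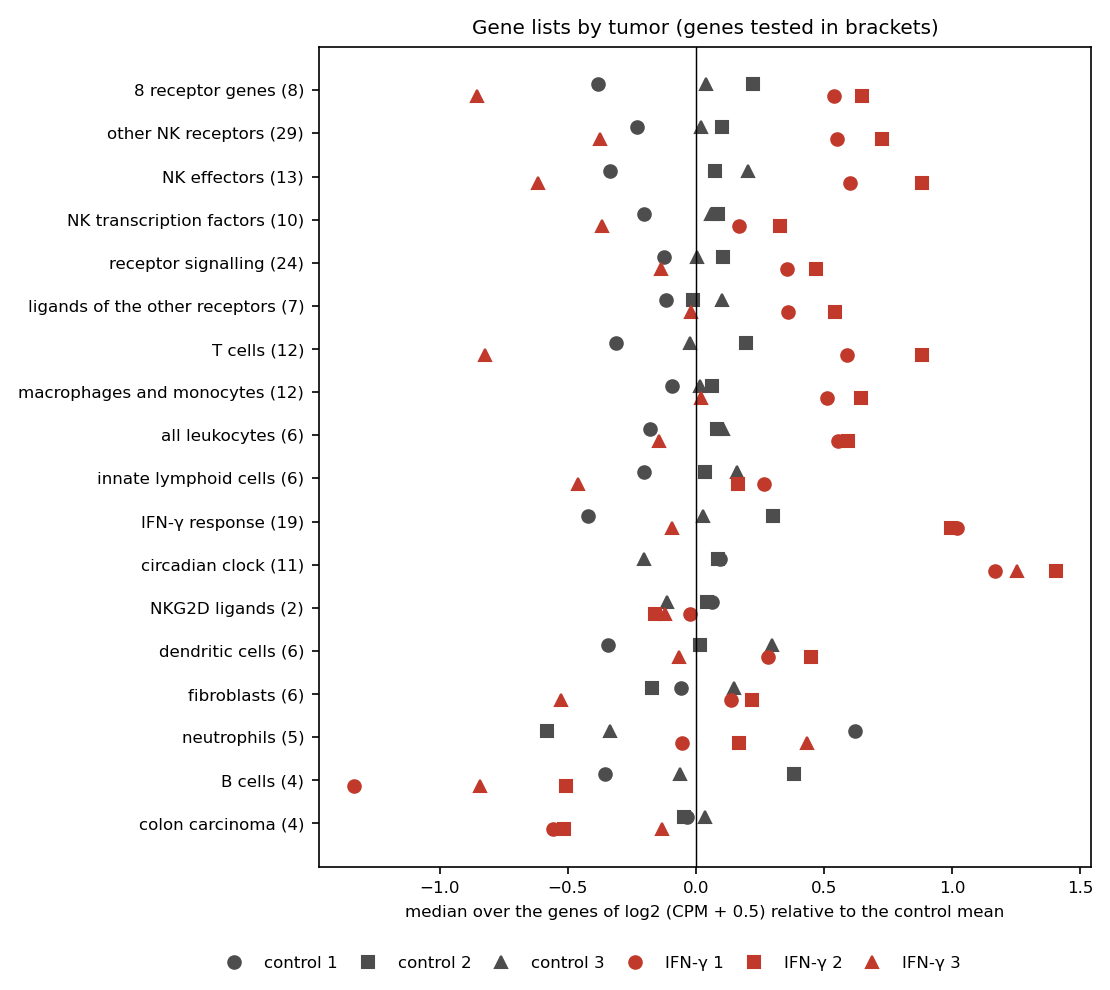
For 18 gene lists, the median over the tested genes of the log2 CPM (plus 0.5) relative to the control mean, in each of the 6 tumors. IFN-γ tumors 1 and 2 both lie above every control in 12 lists and not in the other 6, the NKG2D ligands, dendritic cells, fibroblasts, neutrophils, B cells and colon carcinoma. Among those 12 lists, IFN-γ tumor 3 is lowest for the 8 receptor genes, T cells, other NK receptors and NK effectors. It is also lowest for NK transcription factors, innate lymphoid cells and, narrowly, receptor signalling, and not in the rest of the 12.

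The receptors' ligands were followed from lists drawn up by function. Of 9 genes for NKG2D ligands, 5 were measured here. Raet1a, Raet1b, Raet1c and H60a have no entry under these symbols in the count table, so their levels in these tumors are unknown. Of the 5 measured, only Ulbp1, which encodes MULT1, was abundant. Ulbp1 was at 156, 161 and 149 CPM in the control tumors and 145, 128 and 128 CPM in the IFN-γ tumors. It was lower in every IFN-γ tumor than in any control, at a log2 fold change of -0.22 (SE 0.08, adjusted p = 0.4), a difference that did not pass the test. Raet1d, Raet1e, H60b and H60c each averaged under 1 CPM in both groups.

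Of 11 genes for ligands of the other receptors, 7 could be tested and none passed with 6 tumors. H2-T23 encodes Qa-1, the ligand of CD94 with NKG2A, and measured 107, 145 and 145 CPM in the control tumors and 224, 268 and 131 CPM in the IFN-γ tumors. Cd48, the ligand of 2B4, measured 19.7, 21.5 and 23.8 CPM in the control tumors and 36.6, 40.4 and 21.1 CPM in the IFN-γ tumors. Pvr, a ligand of the activating receptor DNAM-1 and of Tigit, measured 164, 152 and 122 CPM in the control tumors and 87.0, 78.1 and 138 CPM in the IFN-γ tumors. In each case IFN-γ tumor 3 lay within the control range and the other IFN-γ tumors outside it. Without IFN-γ tumor 3, H2-T23 rose (log2 fold change 0.88, adjusted p = 0.019 in edgeR), Cd48 rose (0.82, adjusted p = 0.012) and Pvr fell (-0.83, adjusted p = 0.018). Il15 and Clec2d passed in neither fit, with log2 fold changes of 0.39 and 0.36 with 6 tumors.

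Of 40 further NK receptor genes, 29 were tested with 6 tumors. None passed in edgeR, 1 was called higher by DESeq2 and 2 by edgeR with no filter on low counts, and 24 had a fold change above 0 (median 0.46). Klra4, Klra6, Klra8 and Klra10, of the Ly49 family, whose gene content differs between BALB/c and C57BL/6 mice, were at 0 in all 6 tumors. Once IFN-γ tumor 3 was left out, 5 of 32 rose. Fcgr4 (1.34, adjusted p = 0.011, edgeR), Fcgr3 (0.55, adjusted p = 0.04) and Klra2 (0.77, adjusted p = 0.025) encode receptors that myeloid cells express. Slamf7 (1.49, adjusted p = 0.015, edgeR) encodes a SLAM family receptor, and Il15ra (0.85, adjusted p = 0.049) the chain that presents IL-15. Among 25 genes of receptor signalling, 24 were tested with 6 tumors. EdgeR called none, while DESeq2 and edgeR with no filter each called 2 higher. In the fit without IFN-γ tumor 3, 4 rose, namely Fcer1g (0.71, adjusted p = 0.0093, edgeR), the adaptor of Ncr1 and of Fc receptors, Lat2 (0.61, adjusted p = 0.016), the phosphatase Ptpn6 (0.63, adjusted p = 0.018) and Plcg2 (0.72, adjusted p = 0.045). Cd247, also an adaptor of Ncr1, and Zap70, a kinase recruited by Tyrobp, had log2 fold changes of 0.91 and 0.86 in that fit and did not pass.

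The 13 effector genes, which encode the cytotoxic granule proteins and chemokines of NK and T cells, gave no call with 6 tumors (median log2 fold change 0.46). Without IFN-γ tumor 3, Gzmb (0.73, adjusted p = 0.046, edgeR), Tnfsf10 (0.80, adjusted p = 0.033) and Ccl4 (1.05, adjusted p = 0.045) rose. Ifng itself averaged 0.828 ± 0.446 CPM (SD, n = 3) and 1.46 ± 1.10 CPM (SD, n = 3). The 19 genes of the IFN-γ response all had a fold change above 0 with 6 tumors (median 0.69). None passed in edgeR with its default filter, 1 was called higher by DESeq2 and 4 by edgeR with no filter, and 14 of 19 passed as higher in edgeR without IFN-γ tumor 3. In IFN-γ tumors 1 and 2 their median log2 ratio to the control mean was 1.02 and 1.0. It was -0.09 in the third, the tumor with the lowest receptor levels.

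Of 10 transcription factors of NK cell development, 1 passed the test with 6 tumors. Nfil3, a factor required for NK cells to form, fell. It measured 28.8, 28.5 and 32.5 CPM in the control tumors and 10.9, 11.5 and 12.6 CPM in the IFN-γ tumors, with no overlap and with IFN-γ tumor 3 at the level of the other 2. The log2 fold change was -1.36 (SE 0.11, adjusted p = 0.0043) with 6 tumors and -1.42 (SE 0.12, adjusted p = 0.0027) without IFN-γ tumor 3. Many cell types express Nfil3, which also acts in the circadian clock. Of 12 clock genes, 11 were tested with 6 tumors and 7 were higher and 1 lower in edgeR (9 and 2 in DESeq2), among them Dbp, Arntl, Tef and Nr1d2, with like levels in all 3 IFN-γ tumors. For example, Dbp measured 8.57, 8.34 and 6.80 CPM in the control tumors and 132, 168 and 162 CPM in the IFN-γ tumors. The part of the clock genes in the fall of Nfil3 was not tested. The other 9 factors did not pass in either fit, and Eomes and Tbx21, which direct NK cell maturation, had log2 fold changes of 0.44 and 0.27 with 6 tumors.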

How the data were processed

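RNA-seq was performed on 6 subcutaneous tumors, 3 per group. The authors deposited whole-number read counts per gene without normalization. The submitters' processing notes name HISAT2 and mm10. The counting program and strandedness are not given in the sources used here, so overlapping genes are uncertain. The table's 6 columns were all used, and no library was a copy of another (correlations 0.980 to 0.993, smallest chi-square per gene 6.19). Of the gene identifiers, 99.4% were in GENCODE M21.

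All genes were fitted with edgeR 4.0.16 (R 4.3.3) after its default filter (minimum count 10), TMM factors and the quasi-likelihood test, with Benjamini-Hochberg adjustment over all genes tested and a threshold of 0.05. The SE is the size of the log2 fold change divided by the square root of F. Within-tumor ratios used a pseudocount of 0.5 and an exact permutation test (SciPy 1.17.1). DESeq2 1.42.0, limma 3.58.1 (voom), other scalings, filters, pseudocounts, a replicate block and leaving out each tumor were alternatives. The scripts were tested on simulated counts with known fold changes.

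The members, gene lists and tests were chosen with earlier results of these data known. The genes named are the 10 members, the 5 other genes most correlated with the receptors, up to 4 per list (those past the threshold by smallest p, then the most abundant) and the second genes of the ratios. Further genes were named with their values in view, mainly those past the threshold only without IFN-γ tumor 3 and those given as untested or at 0. The letters for interferon regulatory factors were shortened by 1 base after a first search, with the longer form, that found no match among the 9 promoters.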

Additional observations from a re-analysis of the deposited data

How the results depend on the processing

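In total, 115 of 129 fold changes of the 10 genes under an alternative kept their direction and their side of the threshold, 3 passed it and 11 changed sign, none of them past the threshold. With no filter on low counts 1 gene, Tyrobp, was called higher. Over the fits that each left out 1 tumor, 0 to 2 genes were called higher, the 2 (Klrk1 and Tyrobp) without IFN-γ tumor 3. No alternative called any of the 10 lower. Limma-voom turned the log2 fold changes of Ncr1 and Klre1 to -0.052 and -0.13. With the replicate block, Klrb1c became 0.015 and Klre1 -0.065, and none of the 10 was called. Same-numbered tumors did not deviate together (correlations -0.24, -0.005 and -0.22), so the numbers were not taken as pairs, and the block moved the calls over all genes from 12 higher and 5 lower to 5 and 2. Leaving out 1 tumor gave ranges of -0.32 to 0.50 for Ncr1, -0.40 to 0.52 for Klrb1c, -0.17 to 0.54 for Klre1 and -0.057 to 0.67 for Il2rb. Of 63 values of the ratios, 3 changed sign, all without 1 tumor, with ranges of -0.12 to 0.29 for Tyrobp to Hcst and -0.010 to 0.094 for Klrd1 to Cd3e. DESeq2 called 118 genes higher and 73 lower over all genes, none of the 10 among them, and with no filter edgeR called 150 and 70. Over the lists, 29 of 546 counts moved, either by more than 1.5 times or to or from 0. The cause was not tested. Klrb1c, Cd244a and Hcst had 10 to 71 counts per tumor, and with 3 tumors against 3 the 95% intervals of all 10 genes but Tyrobp included 0.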
